A study of Rattus norvegicus with 12 samples.

Results

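The nuclear receptor Nr1i3 and 9 cytochrome P450 genes of family 2 were examined in rats after a thermal injury. The P450 genes were Cyp2b3, Cyp2c6v1, Cyp2c11, Cyp2c12, Cyp2c13, Cyp2c22, Cyp2c23, Cyp2d2 and Cyp2e1. A gene was taken wherever the array platform's annotation gave a probe set to that gene alone. Each of the 10 genes had 1 such probe set, so 10 of the 15866 probe sets tested are described. The study set thermal injury (burn) against sham treatment on Affymetrix RAE230A arrays at days 1, 2, 4 and 7, with 3 samples a day and 12 samples in all. Each sample is 1 log2 ratio per probe set, and the 9 samples of days 2, 4 and 7 were used here. The labels call the hybridisations dual channel and list sham as channel 1 and the burn as channel 2, although arrays of this kind are read in a single colour, so a ratio is the quotient of a pair of array signals. The direction injury over sham is therefore likely but is not stated, and every sign below rests on it. The labels give no strain, sex, age, tissue or burn size, nor if each sample stands for an animal of its own. The p-values therefore measure only the spread between these samples.

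Nr1i3, also called the constitutive androstane receptor (CAR), is a nuclear receptor of the liver that binds DNA as a pair with a retinoid X receptor. It switches on genes for the uptake, oxidation, conjugation and export of drugs and steroids, Cyp2b and Cyp2c genes among them. The P450 enzymes of family 2 are haem proteins of the endoplasmic reticulum that oxidise drugs, steroids and fatty acids with electrons from P450 reductase (Por). Several rat Cyp2c genes differ strongly between the sexes, under the control of the pattern in which the pituitary releases growth hormone. Inflammation is known to lower the transcripts of many hepatic P450 genes.

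Each array was centred on its median, so a value of 0 is the median probe set of that array. The identifiers of day 1 did not follow those of the other days. The rank correlation of the array signals recovered from the ratios was 0.493 to 0.568 in 36 pairs taken from days 2, 4 and 7, and 0.483 to 0.495 in the 3 pairs within day 1. When an array of day 1 was set against a later one it was -0.0132 to 0.0179 in 27 pairs, so day 1 was left out. All 18 probe sets of a hepatocyte marker list (albumin, Fabp1, Tat and others) were in the brightest class of the array. That class holds the 1015 probe sets with no signal pair found up to the recovery cap of 20000 in most samples. There the larger signal of a pair exceeded the cap, and the smaller one is not known. The 9 Cyp2 probe sets were in that class too, and Nr1i3 was brighter than 69.6% of all probe sets. In such bulk RNA, fewer cells of a type and less RNA per cell cannot be told apart.

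Nr1i3 (probe set 1368797_at) was below the array median in 8 of the 9 samples, which held for 3.44% of all probe sets. Its log2 ratios were -0.56, -0.54 and -0.09 at day 2, -0.50, -0.61 and 0.16 at day 4, and -0.56, -0.91 and -0.60 at day 7. Day 4 sample 3 was the one sample above 0, and the 3 days overlapped. The daily means were -0.40 ± 0.27, -0.32 ± 0.41 and -0.69 ± 0.19 (SD, n = 3 each), so the day 7 mean is 0.621 of the sham level after centring. None of the 3 days passed limma's test at an adjusted p of 0.05, with 0.649, 0.703 and 0.284 in the order of days. Over the 9 samples the mean log2 ratio was -0.47 (SE 0.11), 0.723 of the sham level, with an unadjusted p of 0.00248 and an adjusted p of 0.284 in limma. In that comparison 2 of all 15866 probe sets passed, or 0.0126%.

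The signals behind Nr1i3 could be recovered in all 9 samples, as whole numbers in lowest terms. At day 2 the injury signals were 2999, 2656 and 617, against sham signals of 4334, 4225 and 660. At day 4 they were 6644, 5156 and 7152 for injury, against 9555, 7977 and 6697 for sham. At day 7 they were 2278, 2843 and 1717 for injury, against 3303, 5086 and 2326 for sham. Injury had the lower uncentred signal in all but day 4 sample 3. A pair can have lost a common factor, so its ratio can be compared between samples and its height cannot.

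Letting limma's variance prior follow the brightness of a probe set gave Nr1i3 an adjusted p of 0.104 over the 9 samples, and 49 of all probe sets (0.309%) passed. Leaving out day 4 sample 3 in that fit moved the mean to -0.55 and the adjusted p to 0.0479, which passes. The 8 other fits that each left out a single sample gave Nr1i3 adjusted p of 0.0755 to 0.279. Cyp2c12 passed over the 9 samples with that prior only when day 2 sample 1 was left out, with a mean of 1.66 and an adjusted p of 0.0425.

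**Figure D1:**
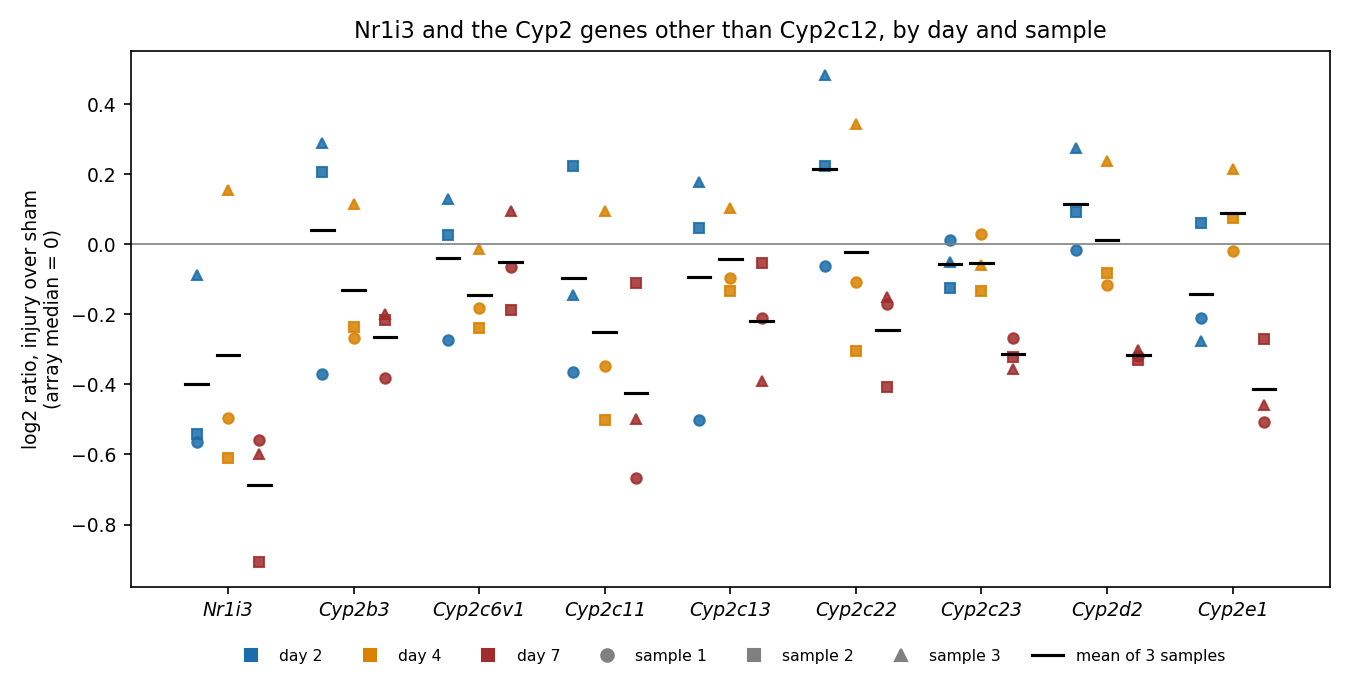
Centred log2 ratio (injury over sham, vertical axis) of Nr1i3 and of the Cyp2 genes other than Cyp2c12 (horizontal axis), with the days in colour, a marker for each of the 3 samples and a black bar for their mean. Nr1i3 has 8 of 9 points below 0 and reaches the lowest value shown, -0.91 at day 7.

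Cyp2c12 (probe set 1368155_at), the female-specific steroid sulfate hydroxylase of rat liver, had the highest ratio of the 10 genes, and it had it at day 2. Its log2 ratios were 1.72, 5.70 and 3.47 at day 2, or 3.30-fold, 51.9-fold and 11.1-fold over sham. They were 0.35, -0.48 and 0.91 at day 4, and -0.56, -0.16 and 1.14 at day 7. All 3 samples of day 2 were above all 3 of day 4, which held for 7.18% of all probe sets. They were also above all 3 of day 7, which held for 6.49%. The samples of day 2 differed widely from each other.

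The day 2 mean of Cyp2c12 was 3.63 ± 1.99 (SD, n = 3), which is 12.4-fold, with a standard error of 0.67 and an adjusted p of 0.278 in limma. At day 2 none of the 10 genes passed, as did 0 of all 15866 probe sets (0%), while 7.98% of all probe sets had an unadjusted p under 0.05. With the variance prior following brightness the adjusted p of Cyp2c12 was 0.0361, and 17 of all probe sets (0.107%) passed. That fit used a brightness set at the recovery cap, because no signal pair of Cyp2c12 was found in 6 of the 9 samples. The smaller signals there are unknown, so Cyp2c12 may be dimmer than the class whose prior it was given. The part of this in the lower adjusted p was not tested. Leaving out any one of 8 of the 9 samples ended that call. Without day 2 sample 2 the mean was 2.60, or 6.05-fold, with an adjusted p of 0.220. Without day 2 sample 3 it was 3.71 with an adjusted p of 0.0839, and without any single sample of day 4 or day 7 the adjusted p lay between 0.0529 and 0.0653. Without day 2 sample 1 it was 4.59, or 24.0-fold, with an adjusted p of 0.0248. Cyp2c12 averaged 0.26 ± 0.70 at day 4 and 0.14 ± 0.89 at day 7 (SD, n = 3 each), with adjusted p of 0.954 and 0.961.

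The spread of Cyp2c12 within a day was large. Its pooled within-day SD of 1.32 exceeded that of 91.4% of all probe sets, against 0.0668 to 0.305 for the other 9 genes and a median of 0.414 over all. The signal pair could be recovered within the cap in 3 samples. In lowest terms it was 361 for injury against 107 for sham in day 2 sample 1, 8890 against 12563 in day 4 sample 2, and 2498 against 1017 in day 7 sample 3. The pair of day 4 sample 2 is less certain, because up to 20000 as many as 14.0% of randomly shifted values also gave a pair. For numbers up to 3000, which cover the other pairs, it was at most 0.467%.

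**Figure D2:**
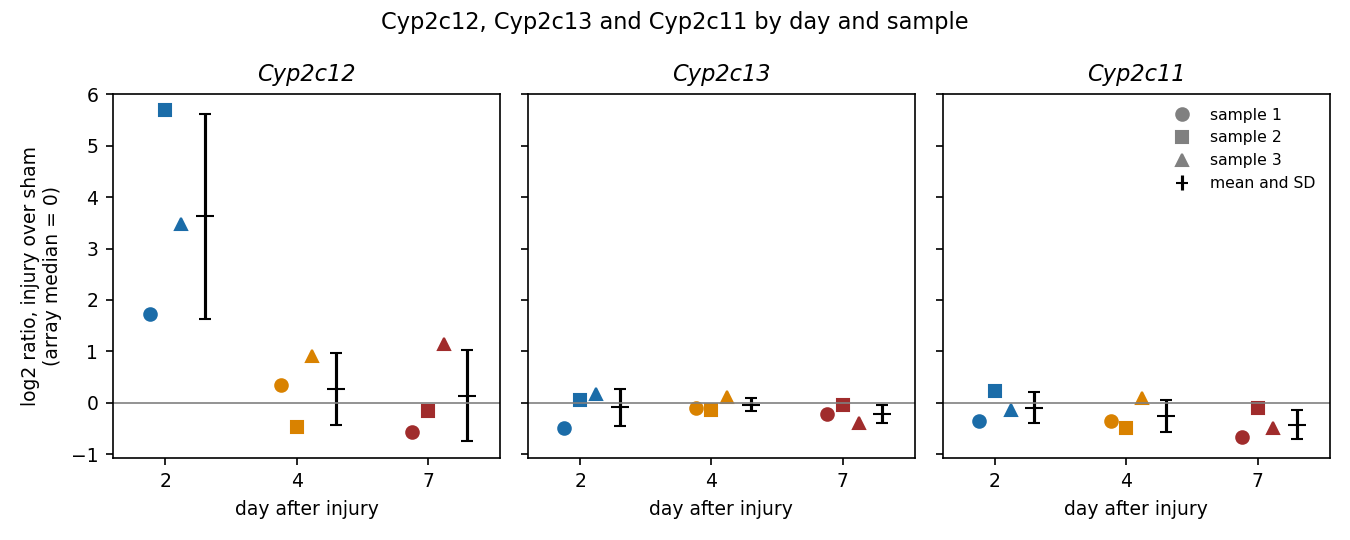
Centred log2 ratio (injury over sham, vertical axis) by day (horizontal axis) for Cyp2c12, Cyp2c13 and Cyp2c11, a panel each, with a marker per sample and the mean with its SD in black. The day 2 points of Cyp2c12 lie at 1.72, 5.70 and 3.47, while those of Cyp2c11 and Cyp2c13 stay between -0.67 and 0.22 on all days.

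Other genes with sex-biased expression in rat liver were looked at beside Cyp2c12 at day 2. A1bg, higher in female rats, had log2 ratios of 0.37, -1.01 and 0.59 at day 2, the lowest in the sample where Cyp2c12 was highest. The prolactin receptor Prlr, also higher in females, had 1.28, -1.34 and 1.19 on its brightest probe set, again lowest in day 2 sample 2. Its other probe sets had 1.48, -0.96 and 1.12, and -0.31, -1.86 and 0.72, each lowest in that sample too. Cyp2a1 had -0.56, 0.15 and -0.01. Cyp2c7 had -0.08, 0.18 and 0.34, and the male-specific Cyp2a2 and Cyp3a2 stayed between -0.06 and 0.21 in the 3 samples. None of these passed at day 2 in limma. Xist, the RNA of the inactive X chromosome, was chosen after its values were seen and is dim, with only 2.2% of all probe sets dimmer. Its log2 ratios at day 2 were -0.14, 3.59 and 0.41, with the highest in the sample where Cyp2c12 was highest. They were -0.31, 0.49 and 0.00 at day 4 and 0.93, 0.98 and 1.39 at day 7, where Cyp2c12 had -0.56, -0.16 and 1.14. The labels do not give the sex of the animals, and the part of sex in these values was not tested.

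The promoters of Cyp2c12 and of the male-specific genes Cyp2c13 and Cyp2c11 are shown because these 3 related genes had such different ratios at day 2. They are the 250 bases before the start that the RefSeq promoter table uses in the rat genome GRCr8, at chr1:248677035-248677284 on the minus strand, chr1:248787189-248787438 on the minus strand and chr1:246174966-246175215 on the plus strand in the order Cyp2c12, Cyp2c13 and Cyp2c11. The RefSeq gene table of the same assembly starts some genes further upstream. By that table the whole Cyp2c12 window lies inside the gene, 4661 bases from its start, and 51 bases of the Cyp2c13 window do, while the Cyp2c11 window lies outside. Capitals mark the HNF4-type motif CAAAGTNCA (any base at N) and the Onecut-type motif ATCAAT, each read on both strands.
Cyp2c12: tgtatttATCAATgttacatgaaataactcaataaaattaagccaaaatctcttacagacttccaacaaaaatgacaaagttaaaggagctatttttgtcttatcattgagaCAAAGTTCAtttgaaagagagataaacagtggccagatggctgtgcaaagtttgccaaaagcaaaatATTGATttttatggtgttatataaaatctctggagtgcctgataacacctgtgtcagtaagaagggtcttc
Cyp2c13: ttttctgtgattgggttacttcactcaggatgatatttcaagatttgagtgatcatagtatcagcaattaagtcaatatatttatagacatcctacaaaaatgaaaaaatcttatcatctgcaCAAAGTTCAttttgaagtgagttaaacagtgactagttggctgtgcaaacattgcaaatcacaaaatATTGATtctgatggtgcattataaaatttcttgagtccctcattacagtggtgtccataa
Cyp2c11: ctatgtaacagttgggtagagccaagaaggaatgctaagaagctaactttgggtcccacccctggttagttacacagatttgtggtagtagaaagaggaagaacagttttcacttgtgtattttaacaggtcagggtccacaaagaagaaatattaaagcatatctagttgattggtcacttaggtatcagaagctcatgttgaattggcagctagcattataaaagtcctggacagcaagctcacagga
The Cyp2c12 and Cyp2c13 promoters were alike, with 171 equal bases in a global alignment that paired 220 positions and held 60 gap positions. The other 35 pairs among the 9 promoters found had 101 to 137 equal bases in alignments made the same way. No promoter of Cyp2c6v1 was matched, and 5 of the 9 windows overlap the gene as the gene table has it.

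HNF4 and Onecut factors are liver transcription factors, and both motifs were present in the Cyp2c12 and Cyp2c13 windows and absent from that of Cyp2c11. The HNF4-type motif was in the windows of Cyp2c12, Cyp2c13 and Cyp2d2, or 3 of 9, against 1.06% of 33469 rat promoters of the same length. The Onecut-type motif was at 2 places in the Cyp2c12 window and at 1 in the Cyp2c13 window, against 7.10% of all promoters with at least 1. Because the Cyp2c12 and Cyp2c13 windows are alike in sequence, motifs they share are not separate finds. An excess over all promoters was not tested. The STAT5-type motif TTCNNNGAA, of the factor that carries the growth hormone signal, was in none of the 9 windows and in 7.67% of all. The nuclear receptor half-site AGGTCA was in those of Cyp2c11, Cyp2c22 and Cyp2e1, and in 14.1% of all. The searched motifs do not overlap each other in these windows. In GRCr8 Cyp2c12, Cyp2c13 and Cyp2c22 are neighbours on chromosome 1 with 0 protein-coding genes between them. At day 2 Cyp2c13 averaged -0.09 ± 0.36 and Cyp2c22 0.22 ± 0.27 (SD, n = 3 each), against 3.63 for Cyp2c12.

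Cyp2c11 (1387328_at), the main male-specific P450 of rat liver, had log2 ratios of -0.36, 0.22 and -0.14 at day 2, -0.35, -0.50 and 0.10 at day 4, and -0.67, -0.11 and -0.50 at day 7. Only day 7 had all 3 samples below 0, and the days overlapped. Its means were -0.10 ± 0.30, -0.25 ± 0.31 and -0.43 ± 0.29 (SD, n = 3 each), and the day 7 mean had an adjusted p of 0.442. Cyp2c13 (1370495_s_at), also male-specific, had -0.50, 0.05 and 0.18 at day 2, -0.10, -0.13 and 0.10 at day 4, and -0.21, -0.05 and -0.39 at day 7. Its 3 days overlapped, and its day 2 mean and its day 7 mean of -0.22 ± 0.17 had adjusted p of 0.926 and 0.658.

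Cyp2c22 (1387949_at), which oxidises retinoic acid in the rat, had log2 ratios of -0.06, 0.22 and 0.48 at day 2, -0.11, -0.30 and 0.34 at day 4, and -0.17, -0.41 and -0.15 at day 7. Its daily means were 0.22 ± 0.27, -0.02 ± 0.33 and -0.24 ± 0.14, and day 7 had an adjusted p of 0.633. Cyp2c6v1 (1370580_a_at), a drug-oxidising form present in both sexes, had log2 ratios of -0.27, 0.03 and 0.13 at day 2, -0.18, -0.24 and -0.01 at day 4, and -0.06, -0.19 and 0.10 at day 7. Its days overlapped, and its adjusted p at day 7 was 0.920, the highest among the Cyp2 genes other than Cyp2c12. The Cyp2c genes are close in sequence, so signal from a related gene in any of their probe sets is uncertain. The probe sets of Cyp2c13 and Cyp2c6v1 also carry name endings that mark probes shared between transcripts.

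Cyp2c23 (1367988_at), the arachidonic acid epoxygenase of rat kidney and liver, was the steadiest of the 10 genes. Its log2 ratios were 0.01, -0.13 and -0.05 at day 2, 0.03, -0.13 and -0.06 at day 4, and -0.27, -0.32 and -0.35 at day 7. The 3 samples of day 7 were below all 3 of day 2 (6.49% of all probe sets) and below all 3 of day 4 (10%). Its within-day SD of 0.0668 was smaller than that of all but 0.107% of probe sets. The day 7 mean of -0.31 ± 0.04 (SD, n = 3) had an unadjusted p of 0.0239 and an adjusted p of 0.380.

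Cyp2d2 (1367917_at), a rat liver enzyme that oxidises debrisoquine, had log2 ratios of -0.02, 0.09 and 0.27 at day 2, -0.12, -0.08 and 0.24 at day 4, and -0.32, -0.33 and -0.30 at day 7. The day 7 samples were again below those of day 2 (6.49% of all probe sets) and of day 4 (10%). They lay within 0.03 of each other, with an adjusted p of 0.419. Cyp2e1 (1367871_at), which oxidises ethanol and other small molecules, had -0.21, 0.06 and -0.28 at day 2, -0.02, 0.07 and 0.21 at day 4, and -0.51, -0.27 and -0.46 at day 7. Its day 7 mean of -0.41 ± 0.12 had an unadjusted p of 0.0129 and an adjusted p of 0.333. Cyp2b3 (1370475_at), of the 2B subfamily, had -0.37, 0.21 and 0.29 at day 2, -0.27, -0.24 and 0.12 at day 4, and -0.38, -0.21 and -0.20 at day 7. Its days overlapped, with daily means of 0.04 ± 0.36, -0.13 ± 0.21 and -0.27 ± 0.10, and an adjusted p of 0.592 at day 7.

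At day 7 the order of mean log2 ratios, lowest first, was Nr1i3, Cyp2c11, Cyp2e1, Cyp2d2, Cyp2c23, Cyp2b3, Cyp2c22, Cyp2c13, Cyp2c6v1 and Cyp2c12. None of the 9 steps between neighbours in that order exceeded the larger SD of the neighbours, and the same held for day 4. At day 2 only the step of 3.42 between Cyp2c22 and Cyp2c12 did.

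None of the 10 genes passed limma's main test at day 4, at day 7, or in any difference between days. Of all 15866 probe sets, 0 passed at day 4 (0%) and 1 at day 7 (0.0063%). Between days 0 passed for day 4 minus day 2 and for day 7 minus day 2 (0% each), 1 for day 7 minus day 4 (0.0063%) and 0 in the F test over the 3 days (0%). With the trended prior none passed either, as did 1 of all probe sets at day 4 (0.0063%), 9 at day 7 (0.0567%), 3 for day 7 minus day 4 (0.0189%) and 0 in the other differences (0%). Unadjusted p under 0.05 were found for Cyp2c12 in the F test (9.75% of all probe sets) and in day 4 minus day 2 (7.45%), for Cyp2c12 and Cyp2d2 in day 7 minus day 2 (7.45%), for Cyp2e1 in day 7 minus day 4 (11.1%), for none of the 10 at day 4 (8.17%), and for Nr1i3, Cyp2c11 and Cyp2c12 over the 9 samples (9.26%). For Cyp2c12, day 4 minus day 2 was -3.37 (SE 0.95, adjusted p = 0.530) and day 7 minus day 2 was -3.49 (SE 0.95, adjusted p = 0.625). For Cyp2e1, day 7 minus day 4 was -0.50 (SE 0.18, adjusted p = 0.378). All 3 samples of day 7 were below all 3 of day 2 in Cyp2c12, Cyp2c22, Cyp2c23 and Cyp2d2 (6.49% of all probe sets), and below all 3 of day 4 in Cyp2c23, Cyp2d2 and Cyp2e1 (10% of all). Day 4 was entirely below day 2 only in Cyp2c12 (7.18% of all).

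Day 7 was the day on which most of the 10 genes lay below the array median, all but Cyp2c12. In 8 of the 10 all 3 samples were below 0, against 17.2% of all probe sets. The exceptions were Cyp2c12 and Cyp2c6v1. The unadjusted p was under 0.05 in 5 of 10, against 11.3% of all and 15.4% of the brightest class, which holds the 9 Cyp2 probe sets. The median of the 10 means was -0.29, and that of all probe sets was -0.00078. At days 2 and 4 there was 1 gene each with all 3 samples below 0, against 13.8% and 16.6% of all. The same RNA samples give all 10 values of a day, so the genes are not independent of each other.

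**Figure D3:**
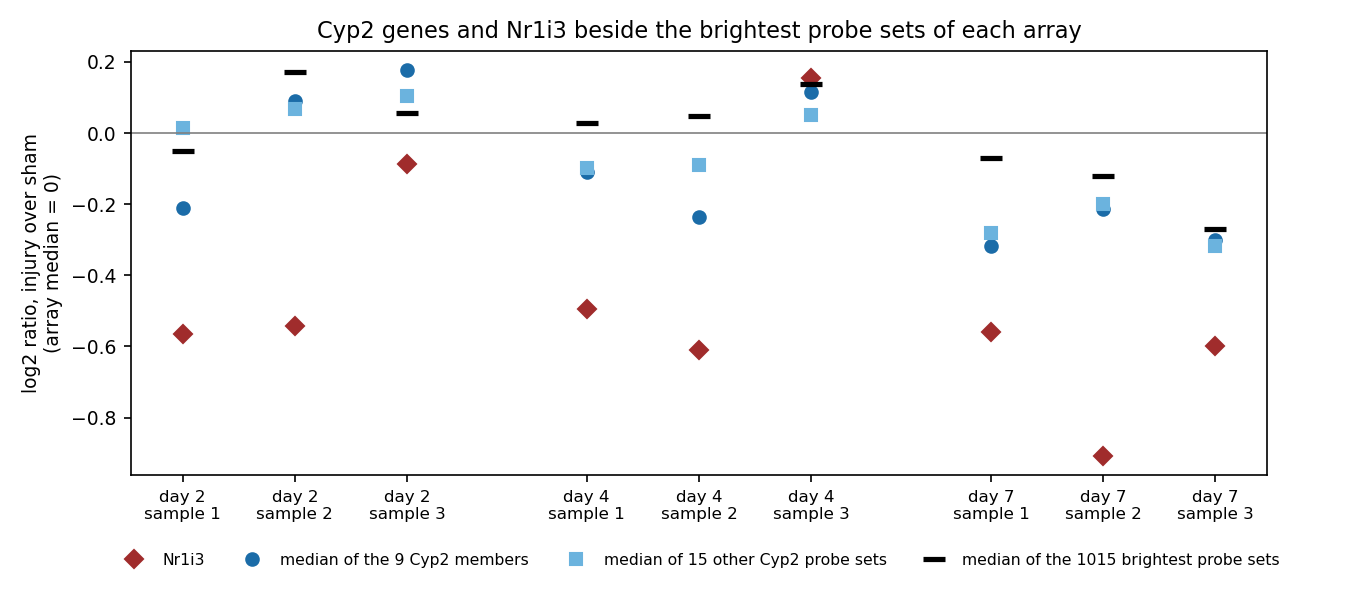
Median centred log2 ratio (vertical axis) in each of the 9 samples (horizontal axis, grouped by day) for the 9 Cyp2 probe sets, for 15 probe sets of other Cyp2 genes and for the 1015 probe sets of the brightest class, with Nr1i3 shown beside them. At day 7 the medians of the 9 Cyp2 probe sets and of the brightest class are below 0 in all 3 samples, between -0.32 and -0.21 for Cyp2 and between -0.27 and -0.07 for the class.

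Bright probe sets as a whole were below 0 at day 7. In the brightest class, which holds all 9 Cyp2 probe sets, the median was 0.06 at day 2, 0.07 at day 4 and -0.17 at day 7. At day 7, 78.8% of its means were below 0 and 42.6% had all 3 samples below 0. By sample, the median of the 9 Cyp2 genes was -0.21, 0.09 and 0.18 at day 2, and that of the class was -0.05, 0.17 and 0.06. At day 4 the Cyp2 medians were -0.11, -0.24 and 0.12, and the class had 0.03, 0.05 and 0.14. At day 7 they were -0.32, -0.21 and -0.30, and the class had -0.07, -0.12 and -0.27. The Cyp2 median was below the class median in 8 of the 9 samples.

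Centring each array within classes of brightness, a choice made after the data were seen, left 2 of the 10 genes with all 3 samples below 0 at day 2, 4 at day 4 and 4 at day 7, against 14.1%, 16.7% and 16.1% of all probe sets. The medians of the 10 means were then -0.11, -0.12 and -0.14, so that day 7 was close to day 4 on this scale. The genes were Cyp2b3, Cyp2c6v1, Cyp2c11 and Cyp2c13 at day 4, and Nr1i3, Cyp2c23, Cyp2d2 and Cyp2e1 at day 7. The Nr1i3 mean was then -0.66 ± 0.22 at day 7, close to its value before. Those of Cyp2c23, Cyp2d2 and Cyp2e1 were -0.16 ± 0.07, -0.16 ± 0.12 and -0.26 ± 0.16 (SD, n = 3 each), each nearer to 0 than before. Cyp2c6v1 was then at 0.10. The day 2 mean of Cyp2c12 was 3.57 ± 1.88, with an adjusted p of 0.0440 when the trended prior was used as well. In that fit Cyp2c12 was the one gene of the 10 past the threshold at day 2, against 0.0945% of all probe sets, and none of the 10 passed at day 7, against 0.0945%, or over the 9 samples, against 0.258%. What sets the shift of the bright probe sets was not tested.

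Over the 9 samples, the Pearson correlation of Nr1i3 with the Cyp2 genes was highest for Cyp2c22 (0.857) and Cyp2d2 (0.820), between 0.377 and 0.629 for 6 others, and lowest for Cyp2c12 (0.257). Each sample gives both values, so these are descriptions. Among the 6805 brighter probe sets with 1 gene symbol outside the 10, those most like Nr1i3 over the 9 samples were Ces1c (0.920), Eci1 (0.916), Hgsnat (0.916), Asxl2 (0.906) and Paqr7 (0.904). Those most like Cyp2c12 were Slc31a1 (0.939), Enc1 (0.933), Sirt7 (0.927), Mplkip (0.925) and Slc25a17 (0.922). Both groups were picked as the highest of these 6805 over only 9 samples, so their high r comes in part from the choice.

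The other Cyp2 genes on the array, 14 of 32 listed with 15 probe sets, had medians of 0.03 at day 2, 0.00 at day 4 and -0.34 at day 7. At day 7 there were 12 of the 15 below 0, and 0 passed limma's test on any day. The 3 with the smallest p at day 7 were both probe sets of Cyp2d4 (-0.83 and -0.49, adjusted p of 0.284 and 0.379) and Cyp2j4 (-0.57, adjusted p = 0.380). P450 genes of other families, 33 probe sets, had a day 7 median of -0.12 with 21 below 0 and 0 passing. Their 3 smallest p at day 7 were for Cyp1a1 (2.27, a dim probe set), Cyp27a1 of bile acid synthesis (-0.48) and the steroid and drug oxidising Cyp3a23-3a1 (-0.52), with adjusted p of 0.287, 0.367 and 0.412.

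Known Nr1i3 target genes outside Cyp2 had 35 probe sets, of which 17 are in the brightest class. Their medians were 0.04, -0.03 and -0.32 at days 2, 4 and 7, with 23 of 35 below 0 at day 7 and 0 passing limma's test. Gstm2, a glutathione transferase, had a day 7 mean of -1.03 with an adjusted p of 0.0621, and 0.00540 with the variance prior following brightness. Ephx1, the microsomal epoxide hydrolase, had -0.48 and Gstm1 -0.37, with adjusted p of 0.396 and 0.404. At day 2 the carboxylesterase Ces1d had -1.35 with an adjusted p of 0.278, and 0.0361 with the trended prior.

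Partners and regulators of Nr1i3 had 31 probe sets, with medians of 0.27, -0.21 and 0.04 at days 2, 4 and 7 and 0 passing limma's test. The liver factor Hnf4a had means of 0.63 at day 2, -0.23 at day 4 and 1.14 at day 7. Day 7 had an adjusted p of 0.169, and 0.0394 with the trended prior. Over the 9 samples its mean was 0.51, with an adjusted p of 0.237, and 0.0499 with the trended prior. Ppara (1.61) and the coactivator Ncoa2 (1.10), both dim, had adjusted p of 0.201 and 0.318 at day 7. Foxa2 had a mean of -0.74 over the 9 samples, with an adjusted p of 0.237, and 0.0499 with the trended prior, just inside the threshold. The heterodimer partner Rxra had 0.75 at day 2, -0.40 at day 4 and 0.90 at day 7, with adjusted p of 0.634, 0.822 and 0.396. Electron donors and haem supply had 15 probe sets with a day 7 median of -0.20, 10 of them below 0 and 0 passing. Hmox1, which breaks haem down, had 0.94, and the electron carriers Cyb5r3 and Cyb5a had -0.46 and -0.32, with adjusted p of 0.380, 0.407 and 0.436.

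Growth hormone signalling and its liver targets had 36 probe sets with medians of 0.03, -0.09 and -0.05 at days 2, 4 and 7, and 0 passed limma's test. Onecut1, a factor known to bind the Cyp2c12 promoter in rats, had log2 ratios of -3.04, -2.73 and -1.92 at day 2, -1.08, -2.79 and -2.66 at day 4, and -1.97, -2.23 and 0.24 at day 7. It was below 0 in every sample but day 7 sample 3. Its mean over the 9 samples was -2.02 (SE 0.30), with an adjusted p of 0.116 and of 0.00838 with the trended prior. Stat3 had 0.76 over the 9 samples, with adjusted p of 0.120 and 0.00877 in the same fits, and Socs3, an inhibitor of growth hormone signalling, had 0.95 at day 7 with an adjusted p of 0.224.

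Markers of other cells and of the acute phase give the setting of these values. Hepatocyte markers had medians of 0.12, -0.07 and -0.13 at days 2, 4 and 7, with 18 of 18 above 0 at day 2 and 16 of 18 below 0 at day 7. The median of the 15 exocrine pancreas probe sets was 0.02, 2.62 and 1.28 in the 3 samples of day 4, with 15 of 15 means above 0, and was -0.14 at day 7. Macrophage markers had medians of 0.02, 0.24 and -0.05, and red cell markers 0.02, 0.61 and 0.33. The 3 smallest p at day 7 were for Hpd (-0.26), Fabp1 (-0.30) and Tat (-0.39) among hepatocyte markers, and for Cela1 (-0.88), Pnliprp1 (0.46) and Pnliprp2 (-0.53) among pancreas markers. They were for Cd14 (-0.41), Clec4f (-0.24) and C1qb (0.24) among macrophage markers, and for Ahsp (0.77), Hemgn (0.38) and Slc4a1 (0.29) among red cell markers. None of these 12 passed limma's test. The part of these cells in the values of Nr1i3 and Cyp2 was not tested. Of the 28 probe sets of positive acute-phase proteins, Orm1 rose over the 9 samples with a mean of 0.78 (SE 0.07) and an adjusted p of 0.04998, just inside the threshold, and the call ended without centring and without any one of the 9 samples. With the trended prior Orm1 had an adjusted p of 0.000863 over the 9 samples, and A2m (1.27), Lcn2 (1.19) and Lbp (1.16) had 0.0077, 0.0203 and 0.0110, while the pancreas marker Cela1 (-0.46) had 0.0399. Orm1 (1.00) and A2m (1.87) at day 2 had 0.0111 and 0.0361 with that prior, and Orm1 at day 7 had 0.0180. In the main test over the 9 samples A2m, Lcn2, Lbp and Cela1 had adjusted p of 0.115, 0.143, 0.143 and 0.180. At day 2 Orm1 and A2m had 0.219 and 0.223 in the main test. In the main test at day 7 Orm1 (0.95), A2m (1.43) and Lbp (1.42) had adjusted p of 0.116, 0.213 and 0.241. The medians of these 28 were 0.32, 0.03 and 0.10 at days 2, 4 and 7.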

How the data were processed

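The authors deposited log2 ratios, 1 per probe set and sample, in a table of 15923 probe sets by 12 samples. Their software, scaling and genome: not given in the sources used here. In all, 57 control probe sets were dropped. The platform annotation gave 1 symbol to 12783 of the 15866 probe sets tested, several to 312 and none to 2771, and the 10 genes were matched through it. Array medians lay between -0.13 and 0.16 before centring. In the main test, R 4.3.3 with limma 3.58.1 (eBayes after lmFit) fitted the mean of each day to the 9 arrays, leaving 6 residual degrees of freedom. Adjustment was by Benjamini and Hochberg over all 15866 probe sets and a threshold of 0.05. It was tested on simulated data first. A second fit let the variance prior follow brightness.

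Signals were recovered by continued fractions with a tolerance of 1e-09, as the pair of whole numbers up to 20000 whose log2 quotient is the deposited value. With numbers up to 3000, 66.4% to 69.4% of an array's values were recovered, against at most 0.467% of values shifted at random. Up to 20000 it was 94.0% to 94.7%, against at most 14.0%, and up to 10000, which covers every Nr1i3 signal printed, at most 3.9% of shifted values. Brightness is the median over arrays of the log2 of the smaller recovered signal, set at the cap where none was found. In that case the smaller signal can lie below the cap. Brightness was cut into 15 classes. For arrays, their number limits the precision.

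The genes and gene lists were chosen with earlier results of these data known. All 10 genes are named. From each other list those past the threshold and the 3 with the smallest p at day 7 are named, and the 5 genes most like Nr1i3 and Cyp2c12 by Pearson's r among probe sets brighter than the median of 10.37. Rxra, A1bg, Prlr, Cyp2a1, Cyp2c7, Cyp2a2, Cyp3a2, Xist, Ces1d, Foxa2, Onecut1, Lcn2 and the means of Stat3 and Hnf4a over the 9 samples were added after their values were seen. Promoters came from RefSeq on GRCr8, with 9 of 10 genes matched, and gene order from the same assembly. Alternatives were no centring, dim probe sets left out, probe sets averaged per gene, the trended prior, array weights, the sample number as a block, and leaving out each sample. Samples of the same number on different days did not deviate together: r was -0.0309 to 0.0546 in 9 such pairs and -0.1015 to 0.0924 in 18 others, so the numbers were not taken to pair the samples.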

Additional observations from a re-analysis of the deposited data

How the results depend on the processing

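The count of the 10 genes past the threshold was 0 in all comparisons in the main test, without centring, with dim probe sets left out, with probe sets averaged per gene, with array weights, with the sample number as a block (0 genes) and without each sample in turn. With the trended prior it was 1 at day 2 (Cyp2c12), and also 1 with brightness classes and that prior together. Leaving out each sample in the trended fit gave 0 to 1 genes at day 2 and 0 to 1 for the mean of days 2, 4 and 7 (Nr1i3 or Cyp2c12). Over all 15866 probe sets, the main test called 0 at day 2, 1 at day 7, 2 over the 9 samples and 1 for day 7 minus day 4. The trended prior called 17, 9, 49 and 3 of them, and brightness classes with that prior called 15, 15, 41 and 1. Leaving out 1 sample moved the trended counts widely, at day 2 to 1 without day 2 sample 2 and 34 without day 2 sample 3, and at day 7 to 0 without day 7 sample 1 or 3 and 36 without day 7 sample 2. The main count at day 7 was 12 without day 7 sample 2 and 3 without day 2 sample 1, and 0 without any other single sample. No centring called 0 at day 7 and 0 over the 9 samples, dim probe sets left out and averaging per gene called 4 each over the 9 samples, and the block called 0 for day 7 minus day 4. Of 70 member values, 4 changed sign without centring and 11 with brightness classes. Among the same 70, 67 moved by less than the replicate SD without centring and 58 with brightness classes. All 360 values that left out a sample did so too, with 29 changes of sign and a largest shift of 1.03. With 3 samples a day, leaving out 1 cannot shift a value by more than the replicate SD. That count of 360 was therefore fixed in advance and is no sign of robustness. The causes were not tested.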

Other observations

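The precision is limited by the 3 samples a day. The direction of the ratio, the tissue, the sex and the number of animals are not stated in the labels. In most values of the 9 Cyp2 genes the larger signal of the pair exceeds the recovery cap. That bounds the larger signal from below and leaves the smaller one unknown.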
